A study of Sus scrofa with 21 samples.

Results

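DUOX2, DUOXA2, NOX1, NOS2, LCN2, LTF and REG3G encode oxidases, a nitric oxide synthase and secreted antimicrobial proteins of the gut lining. They were taken by gene name, and 6 of the 7 could be matched to a gene in the files, among 18661 genes in all. REG3G was not analysed here. The study sequenced RNA from the distal small intestine of 21 piglets of the Danish Landrace/Yorkshire breed, killed when 24 to 25 days old. The starch group (n = 11) had received milk replacer with wheat added, and the control group (n = 10) the milk replacer alone. The labels name no sex, litter, genotype or batch, and a starch or control number below is the piglet's number within its diet.

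The dual oxidase DUOX2 sits in the apical membrane of epithelial cells and releases hydrogen peroxide towards the lumen. It reaches the membrane only together with its maturation factor DUOXA2. NOX1 makes superoxide and is best known from colon epithelium, and NOS2, the inducible nitric oxide synthase, makes nitric oxide from arginine. LCN2 (lipocalin 2) captures bacterial siderophores and LTF (lactoferrin) binds iron. Both of these are made by epithelia and are also stored in neutrophil granules.

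The libraries held 6719264 to 8610458 expected counts. Starch 3, control 5 and control 8 stood apart from the other 18 piglets on the component that carried 64.0% of the variance of the 500 most variable genes, with scores of 78.6, 71.0 and 70.5 against at most 21.3 in any other. The summed level of 10 enterocyte genes was 252 CPM (expected counts per 1000000 of the scaled library) in starch 3, 326 CPM in control 5 and 297 CPM in control 8, and it lay between 8168 and 45202 CPM in the other 18. General epithelial genes were present in all of them. The sum of 10 such genes, EPCAM and CDH1 among them, ran from 3615 to 8927 CPM in starch and from 4330 to 7740 CPM in control piglets. Single genes of this sum differed in direction in starch 3, control 5 and control 8. KRT18 read 531, 476 and 896 CPM there, and at most 89.2 CPM elsewhere. CDX2 read 59.5, 28.2 and 55.5 CPM there, beside a median of 97.0 CPM over all piglets. Macrophage genes summed highest in the same 3 piglets, though this did not hold for every gene. CD163 read 1027, 724 and 813 CPM there, and at most 239 CPM elsewhere. AIF1 read 41.2, 24.5 and 43.2 CPM there, and up to 48.4 CPM in another piglet. Fewer cells of a type and less RNA per cell cannot be told apart in tissue RNA. Results that rest on these 3 piglets are therefore given with and without them.

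DUOX2 was low in most piglets and high in a few. It read between 3.36 and 27.3 CPM in starch piglets, with a median of 7.53, and between 0.886 and 112 CPM in control piglets, with a median of 4.64. The starch maximum was starch 4, followed by starch 3 at 18.3 CPM. The control values were led by control 5 at 112 CPM and control 8 at 68.5 CPM, and the next control piglet, control 9, read 10.6 CPM. All starch values lay within the control range, and the 2 highest values of the study were both control piglets. The log2 fold change of DUOX2, starch over control, was -1.15 (SE 0.70, 95% interval -2.60 to 0.29). Its unadjusted p was 0.113 and its adjusted p 0.9998 in edgeR's quasi-likelihood test with Benjamini-Hochberg adjustment. Without control 5 it was -0.29, and without starch 3, control 5 and control 8 it was 0.88 (95% interval -0.09 to 1.84, adjusted p = 0.9999).

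DUOXA2 had the same piglets at the top. It read from 0.262 to 8.77 CPM in starch piglets (median 2.13) and from 0.708 to 26.1 CPM in control piglets (median 1.20). The highest were control 5 at 26.1 CPM, control 8 at 22.7 CPM, starch 4 at 8.77 CPM and starch 3 at 7.53 CPM. All other piglets were at 5.34 CPM or below. The log2 fold change was -1.01 (SE 0.71, 95% interval -2.49 to 0.46), with an unadjusted p of 0.169 and an adjusted p of 0.9998 in the same edgeR test. Without control 5 it was -0.34, without control 8 it was -0.49, and without starch 3, control 5 and control 8 it was 0.87 (95% interval -0.21 to 1.94).

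**Figure D1:**
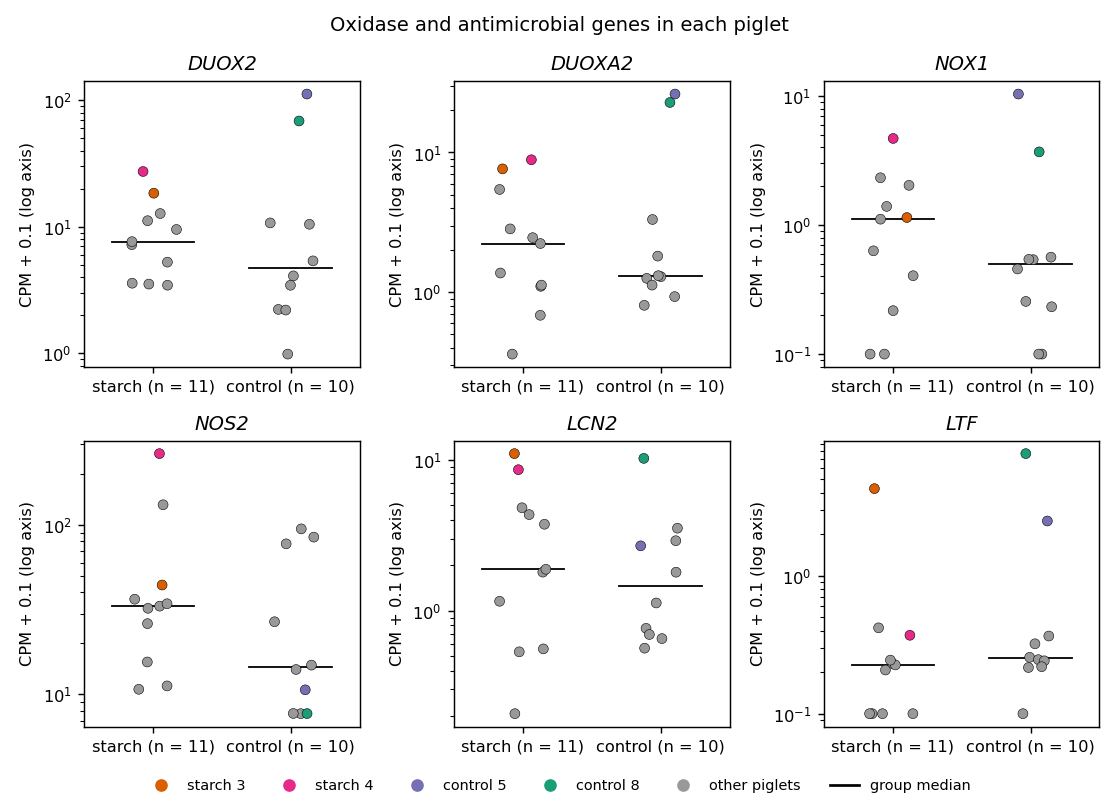
Level of each gene in each piglet as CPM + 0.1 on a log axis, with starch piglets left and control piglets right. Points are piglets, bars are group medians, and starch 3, starch 4, control 5 and control 8 are coloured. Control 5 and control 8 lead DUOX2 and DUOXA2, starch 4 leads NOS2 at 264 CPM, and LTF is above 1 CPM only in starch 3, control 5 and control 8.

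NOX1 was near the detection limit. It had between 0 and 34 counts in starch piglets (median 7) and between 0 and 103 counts in control piglets (median 3), which is up to 4.59 CPM in starch 4 and up to 10.3 CPM in control 5. It was at 0 in 2 starch and 2 control piglets, where 3 counts of the library allow at most 0.348 to 0.446 CPM, a limit that covers counting error only. Only 5 piglets reached 10 counts, so NOX1 did not pass the filter on low counts. In the fit of 18630 genes without that filter its log2 fold change was -0.45 (95% interval -2.15 to 1.25, adjusted p = 0.9997, edgeR). The value depended on single piglets: it was 0.88 without control 5, -0.26 without control 8 and -0.93 without starch 4. Without starch 3, control 5 and control 8 it was 2.13 (95% interval 0.52 to 3.74, unadjusted p = 0.0118, adjusted p = 0.9956), with medians of 0.771 CPM in 10 starch and 0.256 CPM in 8 control piglets. NOX1 was thus among the 3.86% of genes below an unadjusted p of 0.05 in this fit, of which 0% passed after adjustment. With all 21 piglets and no filter the share was 2.81%. For NOX1 the piglets left out ranked 1st (control 5), 3rd (control 8) and 7th (starch 3). Leaving them out took away the 2 highest control values but not the highest starch value. The 8 control piglets left had at most 4 counts, so the value of 2.13 depends on that choice.

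In each piglet the DUOX2 and DUOXA2 messages can be compared per length of coding sequence as FPKM (fragments scaled to coding length and to depth). The ratio of DUOX2 to DUOXA2 had a median of 0.791 in starch piglets (0.546 to 4.54) and of 0.838 in control piglets (0.118 to 1.94). The highest ratio was in starch 1, where DUOXA2 had 2 counts, and the lowest was in control 2, where DUOX2 had 5.68 expected counts. In the RefSeq annotation of Sscrofa11.1 the order of neighbours is DUOX1, DUOXA1, DUOXA2 and DUOX2. DUOX1, the other dual oxidase, varied less between piglets. It was at 5.08 CPM in starch 3, 5.45 CPM in control 5 and 3.15 CPM in control 8, while the others had at most 4.92 CPM. DUOXA1, which has too few counts to be tested, was highest in control 5 (5.18 CPM) and control 8 (3.46 CPM) and at most 1.75 CPM in the other 19 piglets, starch 4 being highest there.

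The partners of these oxidases were measured as a list of 16 oxidase genes, 15 of them in the files. Of the 9 tested genes other than DUOX2 and DUOXA2, 9 had a log2 fold change above 0 and 0 passed the test, with a median of 0.10 against 0.00 over all 13127 genes. The smallest unadjusted p values belonged to RAC2, a GTPase of the blood-cell oxidase (log2 fold change 0.31, 95% interval -0.22 to 0.85), and NCF1, its organising subunit (0.37, -0.66 to 1.40). CYBA, the membrane subunit shared by NOX1 and the phagocyte enzyme, followed at 0.11 (-0.47 to 0.70). NOXO1 and NOXA1, the organiser and activator of NOX1, were low in the 3 piglets that stood apart. NOXO1 read 1.04 CPM in starch 3, 1.39 CPM in control 5 and 1.15 CPM in control 8 beside medians of 5.02 CPM in starch and 3.79 CPM in control piglets. NOXA1 read 7.30, 4.98 and 10.3 CPM in the same 3 piglets beside medians of 16.1 CPM in starch and 17.9 CPM in control piglets. NOXO1, NOXA1, DUOX1 and DUOXA1 were picked for description after their values were seen.

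NOS2 was the most abundant of the 6 genes per length, with a median of 8.11 FPKM over the 21 piglets. LCN2 followed at 2.92, DUOX2 at 1.43, DUOXA2 at 1.37, NOX1 at 0.33 and LTF at 0.06 FPKM. The ranges of neighbours in this order overlapped: NOS2 ran from 2.00 to 71.4 FPKM and LCN2 from 0.24 to 21.4 FPKM, DUOX2 from 0.18 to 30.3 FPKM and DUOXA2 from 0.24 to 31.7 FPKM.

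NOS2 was low in the 2 piglets that led DUOX2. It read from 10.6 to 264 CPM in starch piglets (median 33.1) and from 7.59 to 94.9 CPM in control piglets (median 14.4). Starch 4 (264 CPM) and starch 11 (132 CPM) were highest, followed by control 4 (94.9 CPM), control 3 (84.8 CPM) and control 9 (77.4 CPM). Control 5 and control 8, the leaders of DUOX2, ranked 18th and 20th of 21 for NOS2 at 10.5 and 7.60 CPM, and starch 3 ranked sixth at 44.2 CPM. Starch 4 and starch 11 were also among the 5 highest piglets for DUOX2. The log2 fold change was 0.75 (SE 0.62, 95% interval -0.54 to 2.03, unadjusted p = 0.240, adjusted p = 0.9998, edgeR). It was 0.11 without starch 4, and 0.53 without starch 3, control 5 and control 8 (95% interval -0.84 to 1.91).

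The list for nitric oxide and arginine had 4 of 11 tested genes other than NOS2 higher and 7 lower on starch, 0 past the test, and a median log2 fold change of -0.04. NOS1, the neuronal synthase, had the smallest unadjusted p (log2 fold change -0.45, 95% interval -0.99 to 0.08), ahead of the endothelial synthase NOS3 (-0.22, -0.69 to 0.24). GCH1, which makes the cofactor tetrahydrobiopterin, had a value of 0.18 (-0.37 to 0.73). ASS1, the argininosuccinate synthase that rebuilds arginine, read 258 CPM in starch 3, 149 CPM in control 5 and 152 CPM in control 8, beside medians of 1045 CPM in starch and 763 CPM in control piglets. ARG1, the arginase that competes for arginine, read 118 CPM in starch 3, 68.8 CPM in control 5 and 119 CPM in control 8, and at most 2.78 CPM in any other piglet. ASS1 and ARG1 were chosen after their values were seen.

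LCN2 ran from 0.107 to 10.9 CPM in starch piglets (median 1.78) and from 0.464 to 10.1 CPM in control piglets (median 1.36). The 3 highest piglets were starch 3 at 10.9 CPM, control 8 at 10.1 CPM and starch 4 at 8.50 CPM, and control 5 ranked ninth at 2.59 CPM. The diets overlapped throughout, and 12 piglets reached 10 counts. The log2 fold change was 0.52 (SE 0.63, 95% interval -0.79 to 1.83, unadjusted p = 0.420, adjusted p = 0.9998, edgeR). It was 1.17 without control 8, 0.14 without starch 3, 0.29 without starch 4, and 0.96 without starch 3, control 5 and control 8 (95% interval -0.30 to 2.22).

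LTF was read almost only in the 3 piglets that stood apart. It had 36 counts in starch 3 (4.17 CPM), 24 counts in control 5 (2.39 CPM) and 59 counts in control 8 (7.56 CPM). The other 18 piglets had 0 to 3 counts each. These 3 piglets held 86.2% of the summed CPM of LTF, against 60.6% for DUOX2, 60.6% for DUOXA2, 51.6% for NOX1, 38.4% for LCN2 and 6.32% for NOS2. LTF did not pass the filter on low counts. Its value in the unfiltered fit was -1.15 (95% interval -3.09 to 0.78, adjusted p = 0.9997, edgeR), with 0.22 without control 8 and -3.13 without starch 3. Without starch 3, control 5 and control 8 it was -0.34 (95% interval -1.56 to 0.87).

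Of the 6 genes 4 passed the filter, and the diet test called 0 of these 4 after adjustment, where it called 0% of 13127 genes. At an unadjusted p of 0.05 the members again gave 0 of 4, where 1.33% of all genes (174) passed, and without starch 3, control 5 and control 8 they gave 0 of 4, where 2.91% of genes passed. The spread between piglets was wide. The SD of log2 CPM was 1.58 for DUOX2, 1.51 for DUOXA2, 1.45 for NOS2 and 1.41 for LCN2, larger than in 98.0%, 97.6%, 97.3% and 97.2% of tested genes. These shares are over tested genes of every level, and no ranking among genes of like level was made. DUOXA2 and LCN2 had medians of only 11 and 12 counts, where counting error adds to the SD. Markers of other cells were also uneven between the diets without passing the test. All 6 tested B cell genes were higher on starch (median log2 fold change 1.63), and 8 of 9 tested goblet cell genes were lower (median -0.53), with an unadjusted p below 0.05 for 3 genes in each list. The summed B cell level had a median of 18.7 CPM in starch (9.95 to 692) and of 24.9 CPM in control piglets (10.7 to 155). Goblet cell genes summed to 1700 CPM in starch 3, 2345 CPM in control 5 and 3957 CPM in control 8, while the others had 467 to 1699 CPM. Single genes of this sum differed. AGR2 read 633, 708 and 1338 CPM in these 3 piglets, and at most 270 CPM elsewhere. CLCA1 read 409, 615 and 968 CPM there, and up to 873 CPM in another piglet. Both were picked after their values were seen. The part of these cell types in the diet values was not tested.

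**Figure D2:**
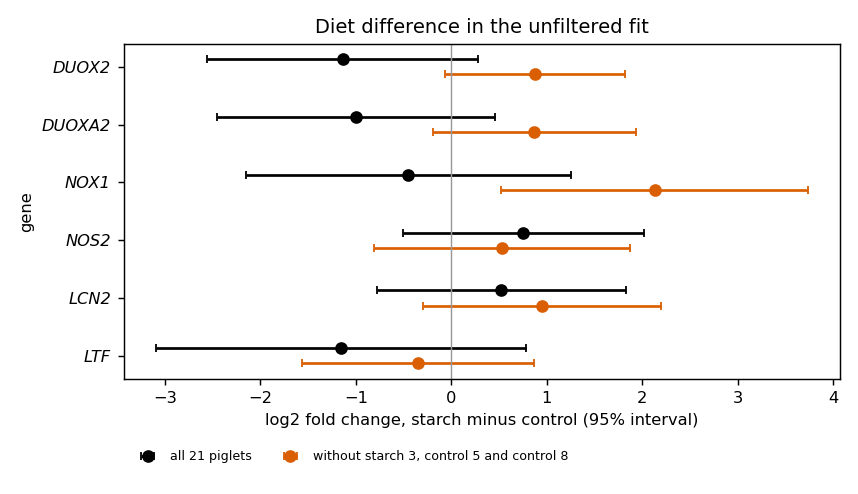
Log2 fold change of each gene, starch minus control, in the fit without a filter on low counts, with 95% intervals, for all 21 piglets (black) and for the 18 left without starch 3, control 5 and control 8 (orange). DUOX2 lies at -1.14 with all piglets and at 0.88 without the 3, and NOX1 at -0.45 and 2.13. Only the NOX1 interval of the 18 piglets leaves out 0, and its adjusted p is 0.9956. Of the piglets left out, control 5 ranked 1st, control 8 ranked 3rd and starch 3 ranked 7th for NOX1.

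Of the 39 antimicrobial genes listed 21 were in the files and 10 were tested. Of the 9 tested genes besides LCN2, 4 had a positive and 5 a negative log2 fold change (median -0.02). In that list 0 genes passed the test. PIGR, the receptor that carries IgA across the epithelium, had the smallest unadjusted p. It read 236 ± 132 CPM in starch (SD, n = 11) and 142 ± 44.9 CPM in control piglets (SD, n = 10), a log2 fold change of 0.73 (95% interval 0.04 to 1.41, unadjusted p = 0.0394, adjusted p = 0.9998, edgeR). PLA2G2A, a secreted phospholipase that kills Gram-positive bacteria, had -1.05 (-2.70 to 0.59). It was at 0 in 6 of 11 starch and 1 of 10 control piglets. LYZ, lysozyme, had 0.38 (-0.32 to 1.09).

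Some genes of neutrophils, though not all, were highest in the same 3 piglets as LTF. S100A12, a calcium-binding protein of neutrophils, read 211 CPM in starch 3, 74.7 CPM in control 5 and 409 CPM in control 8, and at most 2.59 CPM elsewhere. S100A8, another such protein, read 38.9, 12.8 and 74.4 CPM in these piglets, and at most 1.46 CPM elsewhere. CSF3R, the receptor for granulocyte colony-stimulating factor, was at 155, 52.9 and 94.4 CPM, against at most 39.0 CPM in the others. MMP9, the gelatinase of neutrophil granules, was not highest there, at 9.74, 8.96 and 9.74 CPM against up to 27.2 CPM in another piglet. ITGAM, an integrin of myeloid cells, read 58.4, 55.7 and 34.9 CPM, against up to 46.5 CPM elsewhere. Of the 17 neutrophil markers listed 12 were in the files and 4 passed the filter. The summed level, 854 to 2212 CPM in starch and 752 to 3593 CPM in control piglets, was mostly OLFM4, which intestinal crypts also make. MPO, ELANE, AZU1 and PRTN3, genes of early granule formation, had at most 5 counts in any piglet. The share of neutrophil RNA in the LTF and LCN2 values was not tested. All neutrophil genes here were chosen from the list after their values were seen.

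The oxidases varied together from piglet to piglet, while no pair with NOS2 or LCN2 passed by rho over the 21 piglets. Among 15 pairs of the 6 genes, 3 had a Spearman rho past an adjusted p of 0.05 over the 21 piglets, and all 3 were pairs of DUOX2, DUOXA2 and NOX1. DUOX2 and DUOXA2 had a rho of 0.78 (permutation p = 3e-05, adjusted p = 0.000225) and a Pearson r of 0.86 on log2 CPM (permutation p = 1e-05, the smallest that the permutations can give). Without the 2 piglets farthest from the median of DUOX2, r was 0.70. Among the 18 piglets without starch 3, control 5 and control 8, rho was 0.66 (adjusted permutation p = 0.0293). It was 0.91 in starch piglets (adjusted permutation p = 0.003) and 0.59 in control piglets (adjusted permutation p = 0.304). By rho, DUOXA2 ranked 144th of 13126 tested genes in likeness to DUOX2.

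NOX1 and DUOX2 had a rho of 0.85 (adjusted permutation p = 0.00015) and an r of 0.86, and r was 0.76 without the 2 farthest piglets. Among the 18 piglets rho was 0.79 (adjusted permutation p = 0.0018). It was 0.74 in starch piglets (adjusted permutation p = 0.0867) and 0.87 in control piglets (adjusted permutation p = 0.0274). DUOX2 ranked eighth of 13127 tested genes in likeness to NOX1. NOX1 and DUOXA2 had a rho of 0.67 (adjusted permutation p = 0.0058) and an r of 0.74, and r was 0.54 without the 2 farthest piglets. Among the 18 piglets their rho was 0.53 (adjusted permutation p = 0.0939). With counts this low, NOX1 values below 10 counts carry a large counting error.

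NOS2 and DUOX2 had a rho of 0.22 over 21 piglets (adjusted permutation p = 0.638). Among the 18 piglets rho was 0.56 (adjusted permutation p = 0.0912) and r was 0.67 (adjusted permutation p = 0.015). There NOS2 also passed by r with DUOXA2 (r = 0.61, adjusted permutation p = 0.0255) and with NOX1 (r = 0.57, adjusted permutation p = 0.0416), but not by rho (0.49 and 0.50). Over the 21 piglets LCN2 had a rho of 0.09 with DUOX2, 0.13 with DUOXA2, 0.13 with NOX1 and 0.05 with NOS2, with adjusted permutation p between 0.73 and 0.843. Over the 18 the first 3 of these were -0.26, -0.22 and -0.14. LTF had a rho of 0.47 with DUOX2 and 0.53 with DUOXA2 (adjusted permutation p = 0.0806 and 0.0584), and 0.17 and 0.26 among the 18, where it had at most 3 counts. By Pearson's r over the 21 the LTF pairs with DUOX2, DUOXA2, NOX1 and LCN2 did pass (r = 0.71, 0.74, 0.58 and 0.53, adjusted permutation p of at most 0.022).

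**Figure D3:**
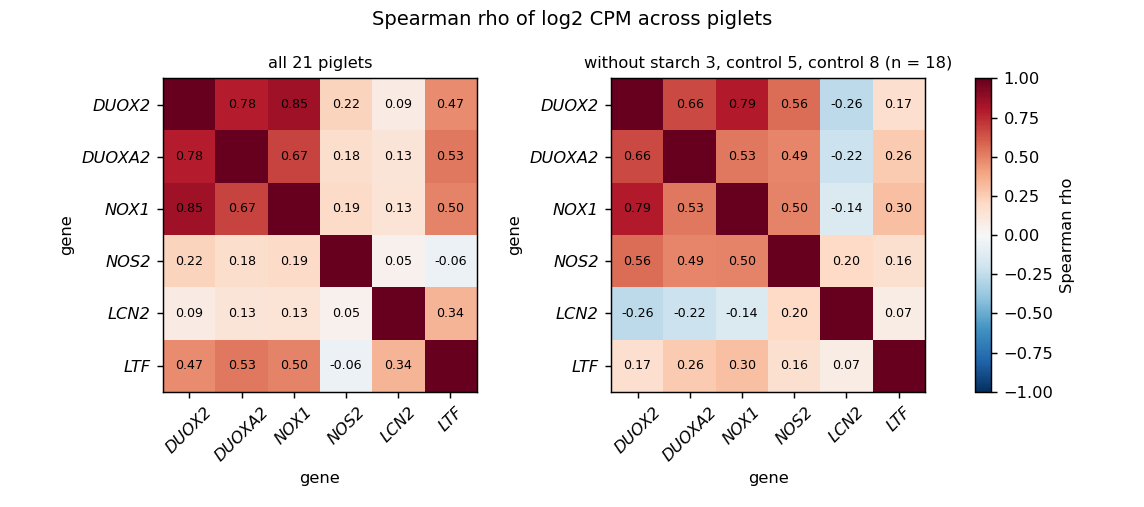
Spearman rho between each pair of genes on log2 CPM, over all 21 piglets (left) and over the 18 without starch 3, control 5 and control 8 (right), with the value printed in each cell. The block of DUOX2, DUOXA2 and NOX1 holds 0.67 to 0.85 on the left and 0.53 to 0.79 on the right, and LCN2 with DUOX2 is 0.09 on the left and -0.26 on the right.

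**Figure D4:**
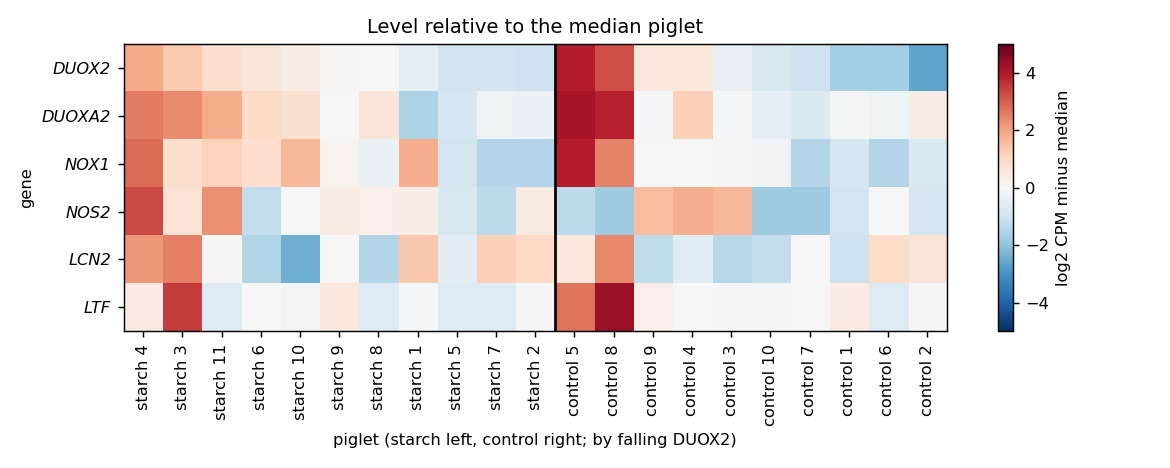
Log2 CPM of each gene minus its median over the 21 piglets, starch piglets left of the line and control piglets right of it, each ordered by falling DUOX2. Control 5 and control 8 are high in the 3 oxidase rows and low in NOS2. Starch 4 is above the median in all 6 rows.

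DUOX2 ran against the enterocyte genes. With its 10 tested genes, among them APOA4, FABP2 and MTTP for fat uptake and SI and ANPEP for brush-border digestion, the list split the piglets into the 3 at 252 to 326 CPM and the 18 at 8168 to 45202 CPM. The relation was therefore read within the 18, where rho was -0.87 and r was -0.90 (permutation p = 1e-05 each, the smallest possible, adjusted p = 0.00096 for rho over 96 combinations of gene and list). Without the 2 farthest of these piglets r was -0.81. NOX1 had a rho of -0.73 with this list within the 18 (adjusted permutation p = 0.0171), and DUOXA2 one of -0.59, which did not pass. LCN2 had a rho of 0.40 and NOS2 one of -0.48 with it, neither past the threshold.

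The list of crypt and proliferation genes ran with DUOX2 (rho 0.70, adjusted permutation p = 0.0233) and with NOX1 (0.71, adjusted permutation p = 0.0214) within the 18. DUOXA2 ran with the macrophage list of 12 tested genes, with a rho of 0.80 (adjusted permutation p = 0.00416). It also ran with the T cell list (0.68, adjusted permutation p = 0.0302) and the B cell list (0.66, adjusted permutation p = 0.0419, r = 0.27). The other oxidase genes as a list had a rho of 0.76 with DUOXA2 (adjusted permutation p = 0.00864). The summed macrophage level was 3458 CPM in starch 3, 2465 CPM in control 5 and 2515 CPM in control 8, while the other 18 had 376 to 1591 CPM. By Pearson's r the T and B cell relations did not pass. Without the 2 farthest of the 18 piglets r was -0.65 for NOX1 with the enterocyte list, 0.68 for DUOX2 and 0.64 for NOX1 with the crypt list, and 0.68 for DUOXA2 with the macrophage list. Over the 21 piglets DUOX2 also passed by rho with the smooth muscle (0.72), neutrophil (0.73), NF-kB (0.72) and macrophage (0.64) lists. Their adjusted permutation p was at most 0.014. Within the 18 none of these passed by rho (0.57, 0.59, 0.57 and 0.44). By Pearson's r the NF-kB list did pass there with DUOX2 (r = 0.68, adjusted permutation p = 0.0298, and r = 0.60 without the 2 farthest). The smooth muscle, neutrophil and macrophage lists did not. Whether the cells of these lists bear on the oxidase levels was not tested.

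**Figure D5:**
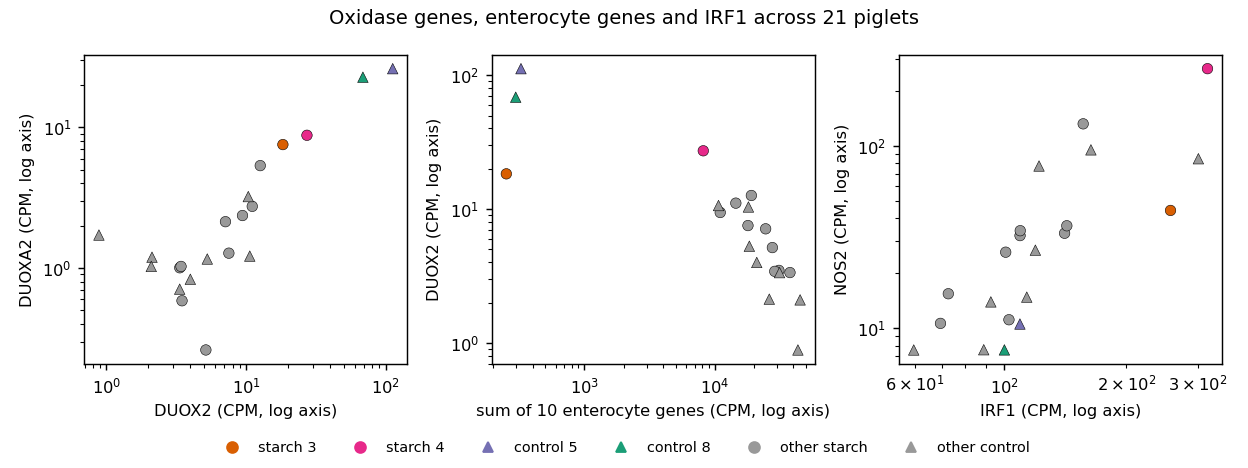
Each point is a piglet (circles starch, triangles control) on log axes in CPM. DUOX2 and DUOXA2 climb together (left), DUOX2 falls as the sum of 10 enterocyte genes grows among the 18 piglets at 8168 CPM or more (middle), and NOS2 climbs with IRF1 (right).

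For each tested gene the 4 most similar genes with a symbol, in order across the 21 piglets, were found by rho, as a description. Genes without a symbol in the name table were passed over, which left out the closest and the fourth closest gene of DUOXA2 and the second and the fourth closest of NOS2. The points of each pair share the library and its scaling. For DUOX2 they were MYO1C, an unconventional myosin (rho 0.93), COL5A3, a collagen chain (0.91), TGM2, transglutaminase 2 (0.91), and AFAP1, an actin-binding protein (0.90). TGM2 read 421 CPM in starch 3, 178 CPM in starch 4, 292 CPM in control 5 and 177 CPM in control 8, beside a median of 42.7 CPM over all piglets. Among the 18 piglets the rho of these 4 was 0.84 to 0.90.

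For DUOXA2 the named genes were SSRP1, a histone chaperone subunit (0.92), HLA-DRA, as the name table calls a class II antigen-presenting chain (0.91), KNOP1 (0.91) and DOK2, an adaptor of blood cells (0.91). HLA-DRA read 1615 CPM in starch 3, 889 CPM in control 5 and 886 CPM in control 8, beside a median of 518 CPM. Starch 4 at 973 CPM and another piglet at 1096 CPM were above both of these control piglets. For LCN2 they were DHCR7, which makes cholesterol (0.82), JUP, plakoglobin of cell junctions (0.82), REEP4 (0.79) and SNAPC2 (0.79).

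For NOS2 the closest gene was IRF1, a transcription factor induced by interferon, with a rho of 0.88 over 21 piglets and 0.91 over the 18. IRF1 read 317 CPM in starch 4, 301 CPM in control 3 and 257 CPM in starch 3, and 59.7 CPM in control 7, the lowest. RADIL (0.78), TRIM40 (0.77) and TAP2, a peptide transporter of antigen presentation (0.76), were the next genes with a symbol. The list of NF-kB and acute inflammation genes, IRF1 among its 17 tested genes, ran with NOS2 within the 18 piglets (rho 0.87, adjusted permutation p = 0.00096, r = 0.90, and r = 0.85 without the 2 farthest). Over all 21 rho was 0.51 (adjusted permutation p = 0.0704).

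Genes that could act upstream were described as lists too. In the list of IL-17 and IL-22 signalling, cytokines that induce DUOX2, LCN2 and REG3G in mouse gut, 4 of 9 tested genes were higher and 5 lower on starch, 0 past the test (median log2 fold change -0.03). TRAF3IP2, the adaptor of the IL-17 receptor, had -0.10 (95% interval -0.54 to 0.35), and SOCS3, a feedback inhibitor, 0.14 (-1.02 to 1.30). IL17A had at most 3 counts and IL22 at most 9 counts in any piglet. SOCS3 read 49.5 CPM in starch 3, 21.7 CPM in control 5 and 22.1 CPM in control 8, beside medians of 5.79 CPM in starch and 6.83 CPM in control piglets.

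In the list of NF-kB and acute inflammation 14 of 17 tested genes were higher and 3 lower on starch, 0 past the test, with a median log2 fold change of 0.12 against 0.00 over all genes, of which 51.1% were higher. IDO1, the interferon-induced enzyme that degrades tryptophan, had 1.30 (95% interval -0.54 to 3.13), CXCL10, a chemokine, 0.66 (-0.39 to 1.70), and RELA, an NF-kB subunit, 0.12 (-0.08 to 0.32). IDO1 reached 151 CPM in starch 3, 32.8 CPM in starch 4, 23.9 CPM in control 5 and 27.3 CPM in control 8, beside medians of 3.98 CPM in starch and 3.63 CPM in control piglets. Genes that remove peroxide and superoxide had 9 of 14 higher and 5 lower on starch, 0 past the test (median 0.05). PRDX1, a peroxiredoxin, had -0.25 (-0.56 to 0.05), TXNRD1, thioredoxin reductase, 0.28 (-0.08 to 0.65), and PRDX3, the mitochondrial peroxiredoxin, 0.11 (-0.07 to 0.29).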

How the data were processed

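The authors deposited 1 file per piglet with an expected count and an FPKM value per Ensembl transcript, per the file headers. The expected counts are as deposited, without normalisation. FPKM as deposited are relative to transcript length and library depth. HISAT and DESeq2 are named in the submitters' processing notes without a role, and the sources used here name neither the counting program nor the genome build. Nearly all lengths are multiples of 3 (99.96 to 99.97%), so FPKM rests on coding length. Of 18661 genes 76.5% had a symbol in the table of names.

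Expected counts were summed per gene, since the 2 transcripts of LCN2 had equal counts in all 21 piglets and a pair of DUOX2 transcripts had equal counts in 18, and rounded to whole numbers. The main test was edgeR 4.0.16 (quasi-likelihood, TMM scaling, filterByExpr with minimum count 10 and minimum total 15, diet as the term) in R 4.3.3 over 13127 genes, with Benjamini-Hochberg adjustment. CPM are expected counts per 1000000 of TMM-scaled library. Relations used log2 CPM (prior count 2) and two-sided permutation tests with 100000 resamples, adjusted over 15 pairs or 96 combinations of 6 genes and 16 lists. A list's value in a piglet was the mean of its centred log2 CPM, members left out. The genes and lists were chosen with earlier results of these data known. Named genes were the members, the 4 most alike genes with a symbol per tested member, and the 3 genes of smallest p per pathway list. One gene that this rule names is not reported here. Alternatives used limma 3.58.1 and DESeq2 1.42.0. The edgeR and permutation tests were checked on simulated data.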

Additional observations from a re-analysis of the deposited data

Results flagged for a closer look

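In the control group of 10 piglets, 3 values lay far from the nearest other piglet relative to the whole range. NOX1 in control 5 read 10.3 CPM, where the next control piglet, control 8, read 3.59 CPM, a gap of 0.65 of the range. LCN2 in control 8 read 10.1 CPM, where the next, control 6, read 3.42 CPM, a gap of 0.694. LTF in control 8 read 7.56 CPM, where the next, control 5, read 2.39 CPM, a gap of 0.684. The limit for 10 samples is 0.466, and it was applied to CPM and not to log2 CPM. Chance flags about 1 in 20 groups only where values are normally distributed. Values that are low in most piglets and high in a few are not, so no chance rate can be given here. The starch group of 11 was too large for this rule. Both piglets are among the 3 with few enterocyte messages, and the part of tissue makeup in these values was not tested.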

How the results depend on the processing

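In 35 alternatives 0 genes passed the adjusted threshold, with 117 to 524 genes at an unadjusted p below 0.05. The diet difference of DUOX2 (-1.15) changed sign with voom and sample weights (0.43), with limma on log2(FPKM + 0.1) (0.081), and without starch 3, control 5 and control 8 (0.88), where those of DUOXA2 (0.87) and NOX1 (2.13) did so too. DESeq2 gave -0.20 for DUOX2. Leaving out each piglet gave -1.43 to -0.29 for DUOX2, -1.32 to -0.34 for DUOXA2, 0.11 to 1.06 for NOS2, 0.14 to 1.17 for LCN2, -0.93 to 0.88 for NOX1 and -3.13 to 0.22 for LTF. NOS2 and LCN2 kept their sign in all 35.

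Of the 15 pairs, 3 passed. The count was 5 with log2(FPKM + 0.5), 1 within control and 1 within starch piglets, and 3 to 6 when each piglet was left out. Within control piglets NOS2 had a rho of -0.10 with DUOX2 and of -0.018 with NOX1. Of 96 relations to lists 21 passed, and 9 without starch 3, control 5 and control 8. The cause was not tested.

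With the replicate number as a block, DUOX2 had 0.33, and 0 genes passed. The labels do not say whether the numbers pair the piglets. Deviations of same-numbered piglets correlated from -0.337 to 0.485, over 0.1 in 4 of 10 pairs. For 0 of 10 control piglets the same-numbered starch piglet was the closest. The lowest correlations were those of numbers 8, 3 and 5 (-0.337, -0.288 and -0.283). These pairs hold control 8, starch 3 and control 5, which stood apart, so the check cannot decide whether the numbers pair piglets. Counting error is large for LTF and NOX1.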

Other observations

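Other defence genes also varied widely between piglets. SLPI, a protease inhibitor with antimicrobial activity, ran from 50.9 to 1472 CPM in starch and from 48.8 to 930 CPM in control piglets, and it was at 71.5 CPM in starch 3, 48.8 CPM in control 5 and 68.7 CPM in control 8. BPI, which permeabilises Gram-negative bacteria, had medians of 99.3 CPM in starch and 105 CPM in control piglets, and it was at 112 CPM in starch 3, 310 CPM in control 5 and 417 CPM in control 8, below the 793 CPM of another piglet. GPX2, the glutathione peroxidase of gut epithelium, read 218 CPM in starch 3, 181 CPM in control 5 and 403 CPM in control 8, beside medians of 65.6 CPM in starch and 48.9 CPM in control piglets and up to 272 CPM in another piglet. CHI3L1, a chitinase-like protein, read 356 CPM in starch 3, 83.3 CPM in control 5 and 118 CPM in control 8, and at most 26.7 CPM in any other piglet. MMP8, the neutrophil collagenase, was detected only in these 3 piglets, at 30.5, 1.79 and 5.26 CPM. All 5 were chosen after their values were seen, and none passed the diet test or, for MMP8, the filter on low counts.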
